A study of Rattus norvegicus with 10 samples.

Results

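The transcripts described here are 72 long non-coding RNA (lncRNA) rows whose mean level in rat cortex was at least 4-fold lower after transient stroke than after sham surgery. They were chosen by measured values from 31183 lncRNA rows, in FPKM, which is a fragment count divided by transcript length and library total. Which fragments make up that total is not known here, and the balance of lower and higher rows depends on it. The rule asked for a sham mean of 1 FPKM or more with all 5 sham libraries above 0, and a mean over the 5 stroke libraries of at most 25% of the sham mean. The direction and the minimum depth of the loss are therefore fixed by the choice, and the contrast between groups is given for these rows as a description and not as a test. The 72 rows lie in 50 loci of 21955.

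The rats were male Sprague-Dawley animals aged 8 to 9 weeks and weighing 240 ± 20 g. In 1 group the middle cerebral artery had been occluded for 2 h and the cortex reperfused for 24 h (MCAO/R, replicates 1 to 5). The other group had sham surgery (replicates 6 to 10), and all libraries were made from total RNA depleted of ribosomal RNA. Whether every library is from an animal of its own is not in the labels, so the p-values reflect only how these samples vary, which can include technical variation. The labels name no side of the brain, no distance from the infarct and no batch.

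Long non-coding RNAs are transcripts of some length without a recognised open reading frame. Many are kept in the nucleus, are made at low levels and are restricted to certain cell types, and the brain expresses a large variety of them. After an arterial occlusion with reperfusion, the cortex supplied by that artery loses neurons while glia react and blood cells enter. In bulk cortex, fewer cells of a type and less RNA per cell cannot be told apart. The rows carry an assembler's locus and isoform number in the form MSTRG.locus.isoform. The mRNA table also holds annotated transcripts, under Ensembl transcript numbers. No identifier of either kind matched the rat gene table used here (0 matches), so no gene name, position or sequence is given, and the tissue could not be checked against its marker genes.

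Most of the 72 transcripts were low in sham cortex. The sham mean lay between 1 and 2 FPKM in 45, between 2 and 5 in 14, between 5 and 20 in 6, and at 20 or above in 7, with a median of 1.66 FPKM and a highest value of 5318. The median of the MCAO/R means was 0.297 FPKM. The fold by which the MCAO/R mean was lower had a median of 6.10, with quartiles of 4.60 and 8.47 and a range from 4.00 to 63.8. It was under 5 in 24 transcripts, at least 8 in 24, at least 16 in 7 and at least 32 in 4. The 24 transcripts under 5-fold lie closest to the limit of the rule.

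The rows on either side of that limit were alike. The transcript just inside the 25% limit had 0.262, 0.360, 1.10, 0.300 and 0.325 FPKM in MCAO/R replicates 1 to 5, and 0.943, 2.99, 1.39, 1.97 and 2.11 in sham replicates 6 to 10. Its MCAO/R mean was 24.97% of the sham mean. The row just outside the limit had 0.212, 0.278, 0.468, 0.323 and 0.149 FPKM in MCAO/R and 0.807, 1.68, 0.734, 1.14 and 1.36 in sham, and its MCAO/R mean was 25.03% of the sham mean. In the row just outside, no library of one group reached the range of the other, whereas in the transcript just inside, MCAO/R replicate 3 lay above sham replicate 6. The transcript with the lowest sham mean had 1.01 FPKM there, and the row just under that limit had 0.981.

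Rows that met the sham conditions but not the 25% limit numbered 1244. They were lower too: their MCAO/R mean had a median of 54.0% of the sham mean, and 83.8% of them lay below the sham mean. The 72 transcripts were 5.47% of the 1316 rows that met the sham conditions.

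The loss was not equally consistent across libraries. All 5 MCAO/R libraries lay below every sham library in 35 of the 72 transcripts (48.6%, against 4.95% of all 20293 tested lncRNA rows, a share from which nothing is read because the rule used this contrast). In 18 transcripts 4 MCAO/R libraries did so, in 4 transcripts 3, in 6 transcripts 2, in 7 transcripts 1 and in 2 transcripts none. Among the 18, the library that reached the sham range was MCAO/R replicate 3 in 8 and replicate 1 in 6. All 5 MCAO/R libraries were at or under 25% of the sham mean in 18 transcripts, 4 libraries in 37, 3 in 15 and 2 in 2. At least 1 MCAO/R library was listed at 0 in 36 transcripts, and in 1 transcript 4 libraries were.

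By library, the median transcript of the set stood at 18.3%, 9.18%, 19.0%, 8.67% and 6.82% of its own sham mean in MCAO/R replicates 1 to 5. In sham replicates 6 to 10 the median stood at 71.0%, 142%, 74.1%, 108% and 66.3%. MCAO/R replicates 1 and 3 held the least complete loss, with 13 and 15 of the 72 transcripts still at 1 FPKM or more, against 6 or 7 in the other MCAO/R libraries. In the sham libraries 40 to 63 transcripts reached 1 FPKM. The 1244 other rows stood at 45.2%, 52.4%, 70.4%, 51.1% and 45.3% in MCAO/R replicates 1 to 5 and at 70.0%, 136%, 80.4%, 104% and 101% in sham replicates 6 to 10. Sham replicate 10 was the lowest sham library for 20 of the 72 transcripts (27.8%) and for 14.0% of the other rows. MCAO/R replicate 1 was the highest MCAO/R library for 20 of the 72 (27.8%) and for 8.28% of the other rows.

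**Figure D1:**
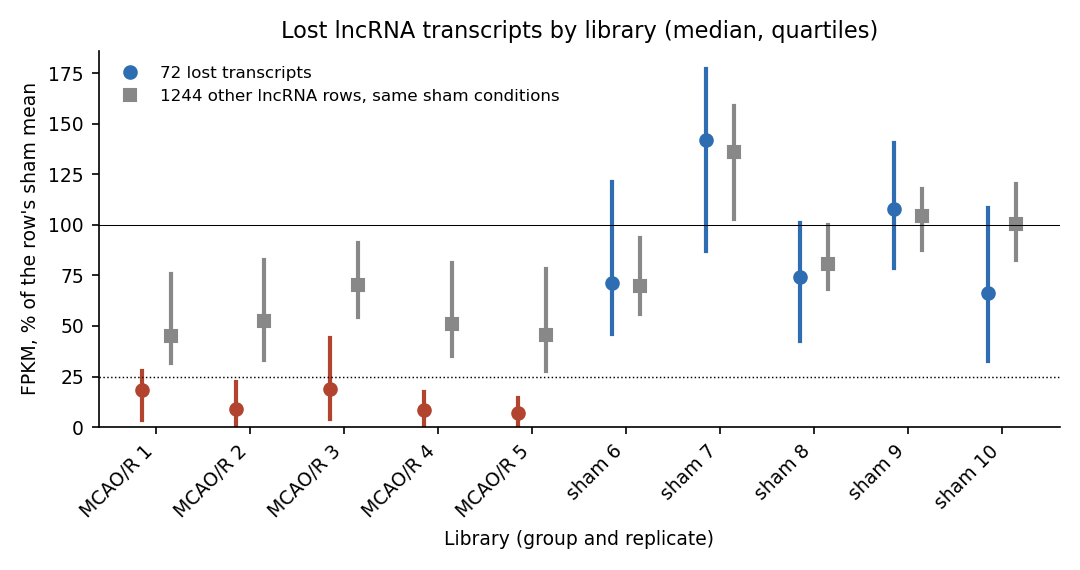
Level of the lost lncRNA transcripts in each library, in percent of each row's sham mean (vertical axis), with the 10 libraries on the horizontal axis. Circles are the median of the 72 transcripts (red MCAO/R, blue sham), grey squares the median of the 1244 other rows that met the sham conditions, and bars the quartiles. The dotted line is the rule's 25%, and the MCAO/R medians lie between 6.82% and 19.0% while sham replicate 7 stands at 142%.

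In limma with Benjamini-Hochberg adjustment over 20293 rows, 40 of the 72 transcripts were called lower and 64 had an unadjusted p under 0.05. Over all tested rows, 1.42% were called lower and 0.67% higher (289 and 136 rows). That balance turned round with factors from lncRNA rows (54 and 212), without the intensity trend (62 and 76) and with a pseudocount of 1 FPKM (3 and 5). It also turned round without sham replicate 7 (26 and 40), without MCAO/R replicate 2 (90 and 123) and without sham replicate 9 (31 and 33). Again nothing is read from the share of the 72 that was called, since the same values chose the transcripts. Of the 40 called transcripts, 30 had groups that did not overlap. By ratio of mean FPKM, the called and the uncalled transcripts had much the same depth of loss (MCAO/R median 15.4% and 16.8% of sham). Among sham libraries, the median SD of the log2 values was 0.66 in the called and 1.49 in the uncalled transcripts. A single high sham library can deepen a ratio of means. On the log2 scale that limma tested, the uncalled transcripts ran from -5.84 to -0.75, the range of the whole set, so like depth is not shown there. The rule used the same values, so no reason for the calls is read from this. How many were called depended on the scaling and on single libraries, and so did the share of all tested rows called lower (given in brackets). It was 3 with a pseudocount of 1 FPKM in place of 0.1 (0.0148%) and 56 with factors from annotated transcripts (6.69%). With 1 library left out, it ran from 11 without sham replicate 9 (0.153%) to 48 without MCAO/R replicate 3 (4.76%). Without sham replicate 7 it was 13 (0.131%).

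The transcript with the smallest adjusted p had 0.144, 0.168, 0.0821, 0.0232 and 0 FPKM in MCAO/R replicates 1 to 5, and 3.51, 2.80, 1.90, 1.11 and 1.61 in sham replicates 6 to 10. The groups lay far apart, and the means were 0.0834 ± 0.0731 and 2.18 ± 0.962 FPKM (SD, n = 5 each), a 26.2-fold difference (limma adjusted p = 0.00202).

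The most even transcript in sham had 1.13, 1.71, 1.00, 1.74 and 1.18 FPKM in replicates 6 to 10, a ratio of highest to lowest of 1.74. Its MCAO/R values were 0.215, 0.318, 0.666, 0.221 and 0.237 FPKM, with replicate 3 above the other four and below every sham library. The MCAO/R mean was 24.5% of the sham mean.

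MSTRG.79051.1 had the deepest loss of all 72 transcripts. It was listed at 0 in MCAO/R replicates 1 and 2, at 0.0146 FPKM in replicate 3, at 0.418 in replicate 4 and at 0.107 in replicate 5. Sham replicates 6 to 10 held 10.3, 5.83, 7.11, 9.93 and 1.17 FPKM. The groups did not overlap, and the sham library nearest to MCAO/R was replicate 10. The means were 0.108 ± 0.179 and 6.88 ± 3.71 FPKM (SD, n = 5 each), a 63.8-fold difference (limma adjusted p = 0.00296). The 8 other lncRNA rows of its locus were mixed: 4 had a log2 fold change below 0, none was called (0 lower and 0 higher in limma), and the isoform numbered 5 was listed at 0 in every MCAO/R library and at 0.743 and 4.93 FPKM in sham replicates 7 and 9. Summed, the 8 rows held 10.9, 9.88, 5.08, 3.82 and 3.90 FPKM in MCAO/R and 0.268, 5.34, 2.57, 7.31 and 6.56 in sham, which puts the MCAO/R mean at 152% of the sham mean. With MSTRG.79051.1 included, the locus summed to 6.81 ± 3.29 FPKM after MCAO/R and 11.3 ± 3.58 after sham surgery (SD, n = 5 each). The isoform with the number 3 was the largest row of the locus in MCAO/R replicates 1, 2, 3 and 5, at 4.84, 3.47, 3.14 and 2.41 FPKM.

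MSTRG.59534.7 had the highest level of the set. MCAO/R replicates 1 to 5 held 10.3, 4527, 58.6, 17.9 and 95.0 FPKM, and sham replicates 6 to 10 held 3022, 7446, 6883, 6098 and 3139. MCAO/R replicate 2 lay within the sham range and the other MCAO/R libraries lay far below every sham library. The means were 942 ± 2004 and 5318 ± 2098 FPKM (SD, n = 5 each), a log2 ratio of -2.50, which became -6.87 without replicate 2. The difference did not pass the limma threshold (adjusted p = 0.0790).

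The sham libraries in which MSTRG.59534.7 was lowest were those in which another isoform of the locus was high. The isoform numbered 6 held 2858 FPKM in sham replicate 6, the isoform numbered 3 held 3060 in sham replicate 10, and both were listed at 0 in the other sham libraries. Summed over all 7 lncRNA rows, the locus held 5879, 7446, 6883, 6098 and 6199 FPKM in sham replicates 6 to 10, and 19.0, 4568, 748, 18.8 and 121 in MCAO/R replicates 1 to 5. With the rows summed the groups did not overlap, at 1095 ± 1965 and 6501 ± 648 FPKM. FPKM divides by the length of the assembled isoform, and these lengths were not used here, so a sum over isoforms is only an approximate level of a locus.

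**Figure D2:**
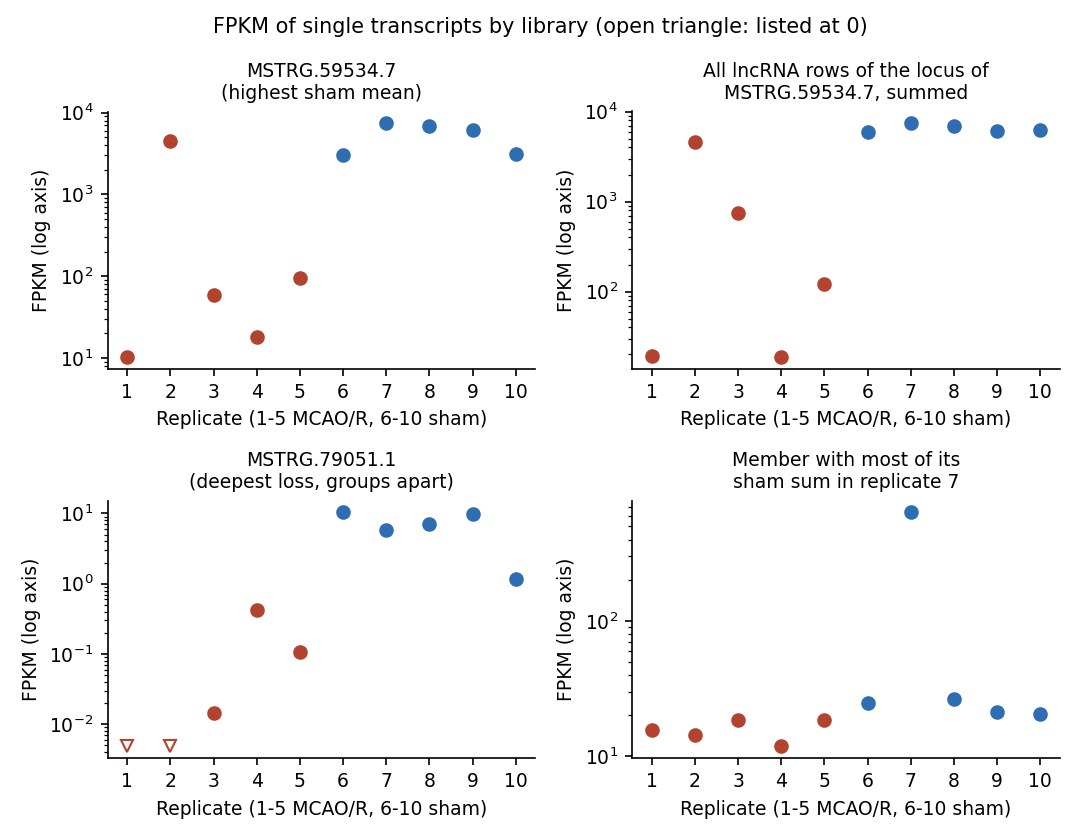
FPKM on log axes (vertical) in the 10 libraries (horizontal, red MCAO/R replicates 1 to 5, blue sham replicates 6 to 10), with open triangles for libraries listed at 0. The panels show MSTRG.59534.7, the sum over its locus, MSTRG.79051.1, and the transcript that holds 87.3% of its summed sham level in replicate 7. In the first pair of panels MCAO/R replicate 2 stands near the sham libraries, and in the last panel sham replicate 7 stands alone at 634 FPKM.

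Other transcripts with a high sham mean owed it to 1 library. Ranked by sham mean, a choice made after values were seen, 7 transcripts had 20 FPKM or more. None of these 7 was called by limma (0 at adjusted p under 0.05), groups did not overlap in 2, and in 5 a single sham library held more than 50% of the sham sum. Next after MSTRG.59534.7 was a transcript with 15.6, 14.3, 18.4, 11.9 and 18.6 FPKM in MCAO/R and 24.5, 634, 26.5, 21.3 and 20.4 in sham replicates 6 to 10. Every MCAO/R library was below every sham library, but sham replicate 7 held 87.3% of the sham sum, and without it the MCAO/R mean was 68.1% of the sham mean in place of 10.8%.

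Another of the 7 held 162 FPKM in sham replicate 6, with 10.8, 5.91, 19.5 and 0.00905 in replicates 7 to 10, and 25.2, 0.370, 0.885, 1.19 and 1.54 in MCAO/R. The next held 161 FPKM in sham replicate 8, with 1.91, 5.18, 1.51 and 1.71 in the other sham libraries and 2.08, 1.45, 1.81, 8.17 and 6.81 in MCAO/R. Sham replicate 8 was also the high library of a further pair, at 123 and 113 FPKM. The first of that pair had 0.0831, 1.18, 14.6 and 0.729 FPKM in the other sham libraries and up to 19.1 in MCAO/R, and the second had 0.465 to 0.822 in the other sham libraries and 0 to 0.976 in MCAO/R. In each of these 4 transcripts the remaining sham libraries overlapped the MCAO/R libraries. The remaining transcript of the 7, the third by sham mean, had 47.3, 105, 16.5, 49.8 and 9.57 FPKM in sham and 8.60, 0, 3.04, 6.37 and 4.12 in MCAO/R. Its groups did not overlap, and its MCAO/R mean was 9.70% of the sham mean.

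Across the set, 12 of 72 transcripts (16.7%) had more than 50% of their sham sum in 1 library, against 3.78% of the 1244 other rows. Since a single high sham library raises the sham mean that the rule used, nothing is read from this difference. The library was replicate 7 in 5, replicate 8 in 3, replicate 9 in 3 and replicate 6 in 1, and in 7 transcripts it held more than 80%. Only 2 of the 12 were called by limma. The transcripts with a sham mean under 2 FPKM, 45 of the 72, held 30 of the 40 called ones and 25 of the 35 whose groups did not overlap. Since the same values chose the transcripts, nothing is read from these counts either.

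Sham replicate 7 was the highest sham library for 39 of the 72 transcripts (54.2%), and for 55.2% of the 1244 other rows. The median share of the sham sum that it held was 28.3% in the set and 27.2% in the other rows. When the rule was applied without replicate 7, 46 of the 72 transcripts met it, among 55 rows in all. Of the 26 that did not, 8 missed only the sham mean of 1 FPKM, 12 missed only the 25% limit and 6 missed both. The median MCAO/R mean moved from 16.4% to 18.8% of the sham mean, and 71 of 72 transcripts stayed under 50%. With replicate 7 included, the rule had put all 72 at or under 25%, so nothing is read from this count.

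**Figure D3:**
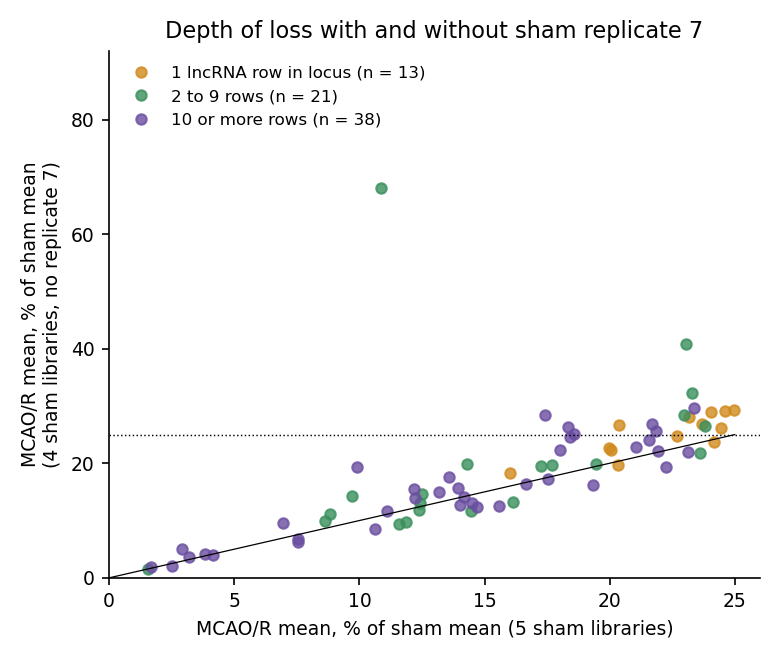
MCAO/R mean of each of the 72 transcripts in percent of the sham mean, with all 5 sham libraries (horizontal axis) and without sham replicate 7 (vertical axis), coloured by the number of lncRNA rows in the locus. The solid line marks equal values and the dotted line 25%. The 18 points above the dotted line are the transcripts that pass the 25% limit only with replicate 7, and the highest of them stands at 68.1%.

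The level of lncRNA as a class differed between the groups. For each library, the median log2 ratio to the row mean was taken over 9195 lncRNA rows above 0 in every library, minus the same median over annotated transcripts. It was -0.72, -0.51, -0.22, -0.43 and -0.63 in MCAO/R replicates 1 to 5 and -0.18, 0.98, 0.04, 0.51 and 0.47 in sham replicates 6 to 10. On this relative scale every MCAO/R library was below every sham library, and replicate 7 was the highest. The difference was -0.87 (means -0.50 ± 0.19 and 0.36 ± 0.45, SD, n = 5 each, two-sided exact permutation p = 0.00794, the smallest this design allows). Without subtracting the annotated transcripts, an alternative chosen after the data were seen, the difference was -0.60 (exact permutation p = 0.0159), and MCAO/R replicate 3 (-0.17) lay above sham replicate 6 (-0.28). Of the 9195 rows, 36 belong to the 72 transcripts.

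Dividing each library by the median ratio of its lncRNA rows removed this class-wide shift. The 72 transcripts then stood at 32.9%, 15.7%, 22.8%, 14.4% and 10.6% of the sham mean (median over transcripts) in MCAO/R replicates 1 to 5, and at 99.4%, 105%, 89.4%, 99.5% and 60.5% in sham replicates 6 to 10. All 72 remained under 50% of sham, with a median of 24.4% and a maximum of 38.8%. The rule had put them at or under 25% before scaling, and the divisors ran only from 0.719 to 1.68. Staying under 50% was thus largely fixed by the choice, and nothing is read from it. After the scaling 37 were at or under 25%, 33 met the whole rule, and groups did not overlap in 24. The share of all lncRNA rows without overlap on this scale is not given here, so nothing is read from the 24. Sham replicate 7 was then the highest sham library for 18 of the 72 (25%), and for 28.0% of the other rows. With both the scaling and the removal of replicate 7, a combination chosen after the data were seen, 28 of the 72 met the rule.

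The rule was also applied with each library left out. Of the 72, 31 transcripts in 22 loci met the rule whichever library was left out. The value in the library left out did not choose the rows, but the means it is set against did, so part of each direction is fixed by the choice and nothing is read from it. The rows chosen without MCAO/R replicate 1, 2, 3, 4 or 5 had medians of 26.1%, 15.3%, 48.4%, 14.0% and 8.35% of the sham mean in the library left out. Over all rows that met the sham conditions, the same libraries stood at 44.0%, 50.3%, 69.0%, 49.0% and 42.9%. Set against the mean of the other MCAO/R libraries, the left-out library had median ratios of 1.63, 0.934, 2.41, 0.926 and 0.663 in the chosen rows, and 0.841, 0.917, 1.36, 0.932 and 0.794 in the candidate rows. In MCAO/R replicates 1 and 3 the median chosen row was thus less reduced than in the libraries that chose it. The rows chosen without sham replicate 6, 7, 8, 9 or 10 stood at 47.5%, 85.1%, 53.9%, 80.7% and 39.7% of the mean of the other sham libraries there, against 61.5%, 136%, 74.2%, 101% and 93.1% over all candidate rows. In each sham library left out, the median chosen row was below the mean of the sham libraries that chose it. The number of rows that met the rule ranged from 55 without sham replicate 7 to 144 without MCAO/R replicate 3.

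The transcripts came more often from large loci than the other rows did. Of the 72, 38 (52.8%) lay in loci with 10 or more lncRNA rows, against 19.7% of the 1244 other rows, a difference given without a test. The 38 include 10 transcripts of 1 locus and 5 each of a pair of loci, so they are not independent, and the share counted by locus is not given. The 13 transcripts that were alone in their locus had a shallow loss, with folds from 4.00 to 6.25 and a median of 4.32. Of these 13, 4 met the rule without replicate 7 and 1 met it after scaling to lncRNA rows. The 21 transcripts in loci with 2 to 9 rows had a median fold of 7.00, and 14 and 12 of them met the rule under the same changes. The 38 in larger loci had a median fold of 6.97, and 28 and 20 met it.

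Other lncRNA rows of the same loci showed a mixed picture. The 50 loci held 774 lncRNA rows outside the set, of which 656 could be tested. In limma 11 of these fell (1.68%) and 1 rose. Called lower were 1.42% of all tested rows, which include the lost transcripts, and 1.22% of the tested rows of other loci. For the 656 rows the values were as follows. Their median log2 fold change was -0.72, against -0.38 over all tested rows and -0.37 over tested rows of other loci. Below 0 were 73.6% of them, against 69.2% and 68.9%. Their median level over all libraries was 0.490 FPKM, against 0.247 for all tested rows. At a sham mean of at least 1 FPKM the medians were closer, at -0.93 for 226 rows of these loci and -0.82 for 1286 rows of other loci. The order of the shares below 0 turned round, at 80.1% of the former and 83.8% of the latter. Of the former 1.77% were called lower and of the latter 7.15%, but the rule had already taken from these loci the rows with the largest loss. The lower calls among other rows came from 6 loci. Rows of the same locus are not independent, and large loci weigh most in these shares. A locus with 139 tested other rows had 120 below 0, and another with 96 had 49. All tested other rows were below 0 in 13 of the 36 loci that had any.

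The row that rose was MSTRG.19975.122, in a locus that also holds 5 of the lost transcripts. It had 1.20, 8.91, 0.767, 7.36 and 6.51 FPKM in MCAO/R replicates 1 to 5 and 0.697, 0.276, 0.939, 0.0691 and 0.0845 in sham replicates 6 to 10. MCAO/R replicates 2, 4 and 5 were high, and replicate 3 lay within the sham range. Its log2 fold change was 3.13 with a standard error of 0.71 (limma adjusted p = 0.0444). The call was lost without any of replicates 1, 2, 4, 5, 7, 9 or 10 (adjusted p from 0.0601 to 0.109), with a pseudocount of 1 FPKM (0.0977) and without the intensity trend (0.0755).

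Summed per locus, the rows outside the set were lower in most loci. Of the 50 loci, 37 had such rows. Their sum in MCAO/R was under 25% of the sham sum in 6 loci, from 25% to 50% in 12, from 50% to 100% in 13, and at or above 100% in 6. In the 31 loci where this sum reached 1 FPKM in sham, the median was 54.6%, 83.9% of loci were below the sham sum and 41.9% were at or under 50%. In 1660 loci without a lost transcript and with at least 1 FPKM in sham, the median was 55.1%, 86.1% were below the sham sum and 42.2% were at or under 50%. These 1660 sums hold every lncRNA row, whereas the sums of the 31 loci leave out the rows with the largest loss, so the sets are unlike. With the lost transcripts included, the lncRNA total of the 37 loci had a median of 43.0% of sham, a value that the rule lowers. The lost transcripts made up a median of 30.5% of their locus's lncRNA FPKM in sham and 11.5% in MCAO/R, and their share was lower in MCAO/R in 33 of the 37 loci, a direction that the rule largely fixes.

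The non-member row with the highest sham mean lay in the locus of the transcript that peaked at 634 FPKM in sham replicate 7. It had 4.89, 4.35, 4.16, 11148 and 754 FPKM in MCAO/R replicates 1 to 5, and 5.04, 4.12, 14210, 3.65 and 3.55 in sham replicates 6 to 10. MCAO/R replicate 4 and sham replicate 8 were high, 1 library in each group. The mRNA-table rows of that locus summed to 5201, 5052, 5531, 51.7 and 5824 FPKM in MCAO/R and 4483, 5050, 13.2, 14.97 and 5632 in sham. In MCAO/R replicate 4 and sham replicate 8 the mRNA-table sum was low where the lncRNA row was high. In sham replicate 9 both were low.

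In 6 loci the set held more than 1 transcript, 28 of the 72 in all, so these rows share their locus and are not independent. The largest group was 10 transcripts of 1 locus with 82 lncRNA rows. Their sham means ranged from 1.11 to 7.53 FPKM and their folds from 4.64 to 26.2, and groups did not overlap in 7 of the 10. Summed over the 10, MCAO/R replicates 1 to 5 held 10.5, 1.69, 2.53, 0.882 and 1.44 FPKM and sham replicates 6 to 10 held 29.2, 43.0, 20.0, 24.97 and 9.49. MCAO/R replicate 1 was the highest of its group and lay above sham replicate 10, the lowest of its own. The first of the 10 by sham mean shows the same: it had 5.61, 0, 0.251, 0.000001 and 1.13 FPKM in MCAO/R and 8.92, 15.3, 7.48, 4.80 and 1.15 in sham.

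The other 8 of the 10, leaving out this transcript and the one with the smallest adjusted p described above, had lower means after MCAO/R by the rule. The highest MCAO/R value among them was 1.14 FPKM, in replicate 1 of the transcript with the second highest sham mean, which had 1.14, 0.0269, 0.532, 0.0991 and 0.000335 FPKM in MCAO/R and 7.42, 10.9, 3.44, 2.96 and 1.11 in sham. The next, at 0.511, 0.142, 0.169, 0.258 and 0.0102 FPKM in MCAO/R and 2.26, 2.37, 2.09, 2.00 and 1.08 in sham, was even in sham except for replicate 10. The least separated of the 10 had 0.674, 0.270, 0.294, 0.0174 and 0.0389 FPKM in MCAO/R and 1.61, 2.81, 0.134, 2.29 and 0.188 in sham, where replicates 8 and 10 lay within the MCAO/R range. The remaining 5 had sham means from 1.11 to 1.76 FPKM.

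In that locus the other rows were lower as well. The 72 other lncRNA rows summed to 33.1, 9.43, 16.6, 7.35 and 14.9 FPKM in MCAO/R and 74.0, 100.3, 42.6, 91.3 and 21.2 in sham. MCAO/R replicate 1 again lay above sham replicate 10. The means were 16.3 ± 10.1 and 65.9 ± 33.3 FPKM (SD, n = 5 each), or 24.7% of sham (two-sided exact permutation p = 0.0159, adjusted p = 0.0952 over 6 loci). These sums were not scaled to lncRNA rows, so the test includes the class-wide lower level of lncRNA after MCAO/R. Nothing particular to this locus is read from its p-value. Of the 60 other rows tested, 59 had a log2 fold change below 0 and 4 were called lower.

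The other 5 loci with several lost transcripts differed from it. In the pair of loci with 5 transcripts each, the other rows stood at 96.3% (exact permutation p = 0.849, adjusted p = 0.849) and 77.2% (p = 0.381, adjusted p = 0.457) of sham. In the pair with 3 each they stood at 80.4% and 76.4% (exact permutation p = 0.270 and 0.262, adjusted p = 0.405 for both). In the locus with 2 they stood at 38.6% (exact permutation p = 0.0635, adjusted p = 0.190). None of the 6 sums of other rows passed an adjusted threshold of 0.05 in these tests. In the first locus with 5, the lost transcripts summed to 4.53, 0.872, 5.32, 2.22 and 0.841 FPKM in MCAO/R and 15.4, 22.1, 6.43, 56.4 and 8.21 in sham, while the other rows held 153 to 317 and 129 to 314 FPKM.

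**Figure D4:**
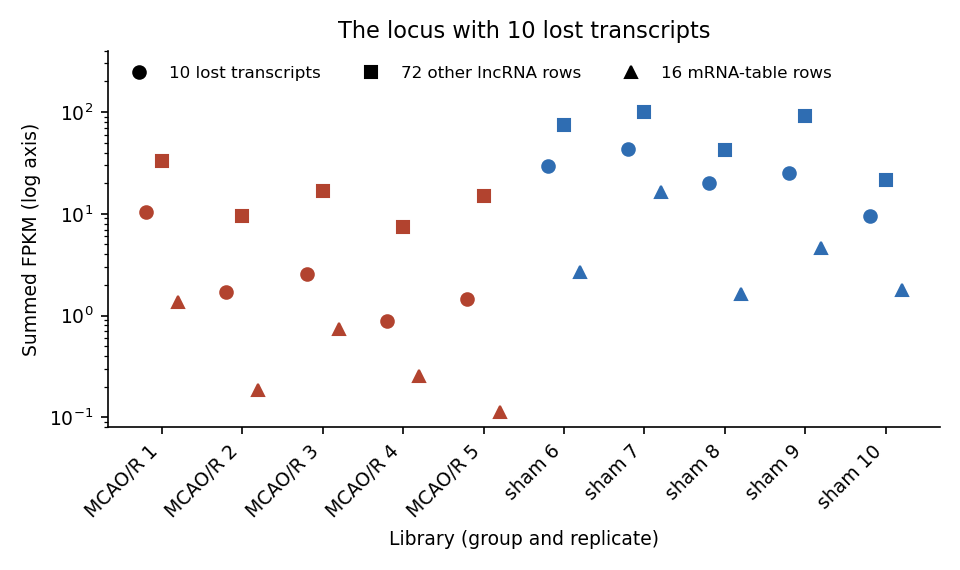
Summed FPKM on a log axis (vertical) of the locus with 10 lost transcripts in each of the 10 libraries (horizontal, red MCAO/R, blue sham). Circles are the 10 lost transcripts, squares the 72 other lncRNA rows and triangles the 16 mRNA-table rows. All 3 sums are lower in most MCAO/R libraries, and MCAO/R replicate 1 and sham replicate 10 come close together in each.

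The mRNA table gives a readout of the same loci that the rule did not use, although from the same libraries. Of the 50 loci, 20 had rows there, 563 in all. Isoforms were summed to the locus, and 17 loci passed the filter. Of these 17 features 7 fell (41.2%) and 0 rose in limma, at adjusted p under 0.05. At an unadjusted p under 0.05, 9 were lower and 0 higher. Over all 25038 features tested there, 5.19% were called lower and 14.3% higher. With factors from annotated transcripts 11.4% were called lower, more than were called higher (2858 and 2166 features), and of the 17 features 8 were. Among 2249 features of other loci with rows in both tables, 9.25% were called lower. The median log2 fold change was -0.54 for the 17, -0.05 for the 2249 and 0.11 for all features, and 15 of the 17 were below 0.

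The 7 features that fell had log2 fold changes from -1.73 to -0.76 and sham means from 5.43 to 64.7 FPKM. Their loci hold 21 of the 72 lost transcripts. In 3 of the 7 features the groups did not overlap. No share over all features is given for that count, so nothing is read from it. The largest change was in the locus with 10 lost transcripts. Its mRNA-table rows summed to 1.34, 0.184, 0.731, 0.255 and 0.112 FPKM in MCAO/R and 2.69, 16.4, 1.63, 4.65 and 1.79 in sham, with replicate 7 above the other sham libraries (log2 fold change -1.73, standard error 0.48, limma adjusted p = 0.0326). The feature with the smallest standard error, singled out after values were seen, was a locus with 59.1, 66.7, 79.8, 70.3 and 47.7 FPKM in sham and 36.7, 36.3, 46.0, 33.1 and 29.3 in MCAO/R. Its groups did not overlap, and replicate 7 was within the sham range (log2 fold change -0.81, standard error 0.16, limma adjusted p = 0.00703).

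In the 7 loci the lncRNA rows outside the set stood at 24.7% to 80.4% of sham. The number of features called lower was 3 of 17 with factors from lncRNA rows (17.6%, against 1.04% of all features). Without a filter it was 2 of 20 (10%, against 0.0705%). It was 4 of 17 (23.5%) without MCAO/R replicate 2 or 4 or sham replicate 9, against 3.56%, 3.22% and 2.80% of all features. With isoforms left as deposited, 10 of 164 rows (6.10%) were called lower, against 1.29% of all rows tested that way. None of these shares was matched for level. The first locus with 5 lost transcripts was among those not called: its mRNA-table rows held 104 to 162 FPKM in MCAO/R and 76.7 to 190 in sham (log2 fold change 0.01).

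**Figure D5:**
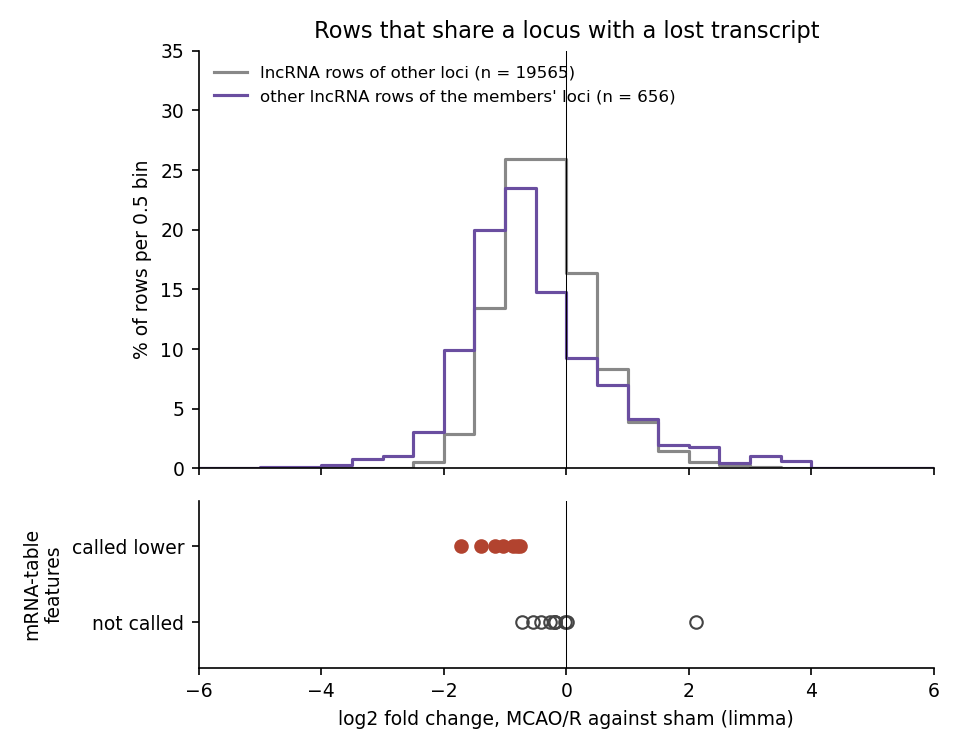
The upper panel gives the share of tested lncRNA rows (vertical axis, percent) in bins of log2 fold change, MCAO/R against sham (horizontal axis), for the 656 other rows of the loci with lost transcripts (purple) and for the rows of other loci (grey). The lower panel gives the 17 mRNA-table features of the loci with lost transcripts on the same axis, 7 called lower (filled) and 10 not called (open). The purple line has a median of -0.72 and the grey line of -0.37, but at a sham mean of at least 1 FPKM these are -0.93 and -0.82. The purple line also holds more in the rising bins that start at 2 and 3 (1.83% and 1.07%, against 0.562% and 0.0971%). The filled points lie between -1.73 and -0.76.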

How the data were processed

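The authors deposited FPKM for mRNA and lncRNA in 10 cortical libraries, 5 per group. Per the submitters' processing notes the build is Rnor_5.0. Not given in the sources used here are the isoform lengths and the tools for alignment, assembly and quantification. FPKM hold no read totals, so depth is unknown and no interval for it is given. Every library column was mapped by its label (0 unmapped). The transcripts and lists were chosen with earlier results of these data known. Lists of cell type markers could not be applied, because neither the assembled nor the Ensembl transcript identifiers could be paired with gene symbols.

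lncRNA rows averaging 0.1 FPKM or more over the 10 libraries entered the fit on log2(FPKM + 0.1). mRNA-table isoforms of an assembled locus were summed, and features of at least 0.5 FPKM were tested on log2(FPKM + 1). Fold changes on these scales understate the change of low rows. Tests used limma 3.58.1 in R 4.3.3 with an intensity trend, two-sided, with Benjamini-Hochberg adjustment over each table and a threshold of 0.05. The procedure was tested on simulated data. Single values per library were compared by exact permutation over 252 assignments. Folds without a named test are ratios of mean FPKM. Identifiers are printed for the transcript with the highest sham mean, for the deepest loss without overlap and for rows of these loci called higher. Others were picked by fixed roles (most even, smallest adjusted p, nearest to a limit, highest share in replicate 7, most transcripts in a locus). Alternatives covered pseudocount, filter, trend, scaling, the rule's conditions and leaving out each library.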

Additional observations from a re-analysis of the deposited data

Results flagged for a closer look

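A library was marked where it stood far from the other 4 of its group, by Dixon's criterion at the 95% level. The groups of 5 looked at numbered 60, and chance marks about 1 in 20 if values are normally distributed, which was not tested here. In a separate count over all 72 transcripts, 20 of the 72 MCAO/R groups (replicate 3 in 10, replicate 1 in 6) and 13 of the 72 sham groups held such a library. The rule favours rows with 1 high sham library, so nothing is read from these counts.

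In MSTRG.59534.7, MCAO/R replicate 2 stood at 4527 FPKM, against 95.0 in the next library. In MSTRG.79051.1, MCAO/R replicate 4 stood at 0.418 FPKM, against 0.107. MCAO/R replicate 3 stood apart in the most even sham transcript (0.666 FPKM, against 0.318), in the transcript nearest the 25% limit (1.10, against 0.360) and in the transcript with the lowest sham mean (0.499, against 0.179).

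In the locus with 10 lost transcripts, MCAO/R replicate 1 stood apart in a pair of transcripts, at 5.61 and 0.324 FPKM. Sham libraries stood apart in 3: replicate 10 was low at 1.08 FPKM, replicate 7 was high at 3.18, and replicate 9 was high at 3.19.

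Among the transcripts with 20 FPKM or more in sham, the high library was sham replicate 7 at 634 FPKM, sham replicate 6 at 162, and sham replicate 8 at 161, 123 and 113 in 3 transcripts. The transcript at 162 FPKM also had a high MCAO/R replicate 1 (25.2 FPKM, against 1.54), and the transcript at 123 FPKM a high MCAO/R replicate 2 (19.1, against 1.20). In the non-member row with the highest sham mean, MCAO/R replicate 4 stood at 11148 FPKM and sham replicate 8 at 14210.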

How the results depend on the processing

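The number of rows that met the rule was 72. It was 116 with equal sums over both tables, 179 with factors from annotated transcripts, 33 with factors from lncRNA rows, 121 with medians, 27 at a sham mean of 2 FPKM, 193 without the condition on 0, 31 with lncRNA factors and no sham replicate 7 (chosen after seeing the data), and 55 to 144 with 1 library left out. lncRNA rows called lower numbered 289 (136 higher): 3 (5 higher) with a pseudocount of 1, 156 (106) without a filter, 687 (114) at a mean of 0.5 FPKM, 62 (76) without the trend, 54 (212) with lncRNA factors, 1372 (174) with annotated factors, and 874 (172) with equal sums. With 1 library left out they ran from 26 (40 higher, without sham replicate 7) to 975 (280 higher, without MCAO/R replicate 3). In the same order, other lncRNA rows of the loci called lower, 11 at first, numbered 0, 7, 24, 4, 2, 58 and 34, and 2 to 40 with 1 library left out. Factors from lncRNA rows shifted the median over all lncRNA rows (log2) from -0.38 to 0.04 and those from annotated transcripts to -0.57. mRNA-table features called lower, 1300 (3590 higher), numbered 208 (1241) without a filter, 555 (2036) as deposited rows, 263 (8814) with lncRNA factors, 2858 (2166) with annotated factors, 1830 (2569) with equal sums, and 703 to 1717 with 1 library left out. Of these features, those of the loci described here numbered 7, 2 without a filter, 3 with lncRNA factors, and 4 to 9 with 1 library left out. The class-wide lncRNA difference kept its direction and side of the threshold under each alternative run (-0.99 to -0.71 with 1 library left out, -0.60 without the annotated median). The cause of these differences between settings was not tested. No paired analysis was possible because the groups share no replicate number.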
